A study of Mus musculus with 14 samples.

Results

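The comparison described here is that of BM hepatocytes at 3 weeks (BM 3W) with BM hepatocytes at 3 days (BM 3D), across all genes. Both groups are wild type C57BL/6 mouse liver cells in the culture that the labels call BM, a name they do not spell out, and they differ in time in culture. The groups were taken from the sample labels: 2 BM 3W and 2 BM 3D libraries, 4 of the 14 libraries of the series. The series, whose title concerns keeping primary hepatocyte functions in vitro by inhibiting tension-induced YAP activation, also holds fresh hepatocytes (FH), BM hepatocytes at 1 day (BM 1D), LBDXL hepatocytes at 3 weeks, and Yap-/- hepatocytes both fresh and after 3 weeks of BM culture, each in duplicate. FH and BM 1D, also wild type C57BL/6, are used here to give levels over time. All 14 libraries also entered the fit behind the p-values. The labels leave unsaid whether the 2 libraries of each group are separate animals or separate dishes. The p-values rest on the spread between duplicates in all groups of the series, not in BM 3W and BM 3D alone. That spread may be technical.

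Hepatocytes are the main epithelial cells of the liver and make plasma proteins, urea and bile acids and break down drugs. When they are plated on a stiff surface they flatten, build actin stress fibres and lose much of this specialised expression over time, a process called dedifferentiation. YAP is a transcriptional coactivator that enters the nucleus under mechanical tension and, with the DNA-binding TEAD factors, switches on genes of growth, cytoskeleton and matrix. A preparation of hepatocytes also carries small numbers of other liver cells, such as stellate cells, which turn into matrix-making myofibroblasts in culture, Kupffer cells, which are the resident macrophages, sinusoidal endothelial cells and bile duct cells.

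The libraries held 19546748 and 19756539 counts in BM 3W, against 18180675 and 17704762 counts in BM 3D, within the range of 15501005 to 21220365 counts over the series. Levels are given as CPM (each count relative to its library's total), scaled by the trimmed mean of M values (TMM), with values of library 1 and library 2 in that order. Albumin took 4.35% and 0.482% of all counts in BM 3W, against 3.45% and 8.15% in BM 3D, so the libraries of each group stood apart in their hepatocyte messages. On the first principal component of all 14 libraries, which held 52.9% of the variance, the BM 3W libraries lay at -163 and -186 and the BM 3D libraries at -57.7 and -48.5.

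Of 14100 genes tested, 3447 passed an adjusted p of 0.05 (24.4%) between BM 3W and BM 3D. In BM 3W, 1906 genes rose (13.5%) and 1541 fell (10.9%), and the median log2 fold change of all tested genes was -0.0982. The share of called genes that rose was 55.3%, but it depended on scaling. It was 66.2% with DESeq2 size factors, where 2092 rose and 1069 fell, and 78.3% with total counts, where 2540 rose and 704 fell. The median of all genes lay at 0.0332 and 0.24 under those scalings, against -0.0982 with TMM. The sign of a change smaller than the distance between these medians can therefore depend on the scaling. Leaving out BM 3W library 2 gave the fewest calls, 1664, and leaving out BM 3W library 1, BM 3D library 1 or BM 3D library 2 gave 2099, 2198 and 2480 calls. In bulk RNA, fewer cells of a type and less RNA per cell cannot be told apart.

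**Figure D1:**
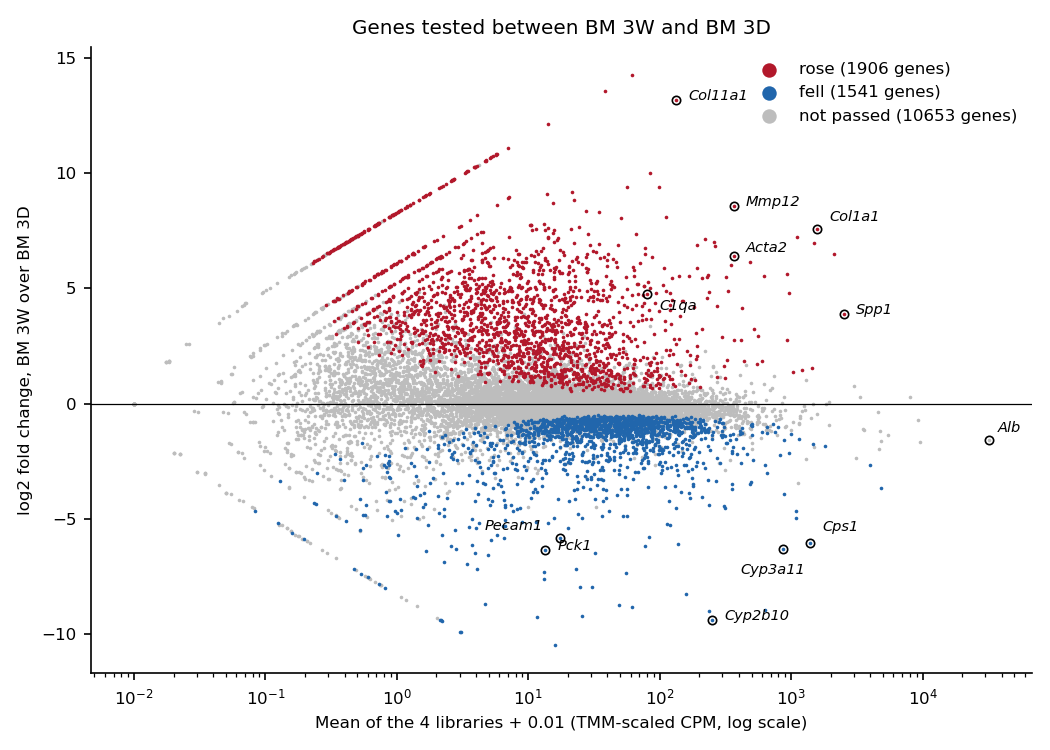
Log2 fold change of BM 3W over BM 3D (vertical axis) against the mean level of the 4 libraries in TMM-scaled CPM plus 0.01 (horizontal axis, log scale), 1 point per tested gene. Red points are the 1906 genes that rose, blue points the 1541 that fell and grey points the 10653 that did not pass; the rises include genes near 0 in BM 3D, which form the diagonal lines at the upper left, while albumin (Alb), the most abundant labelled gene, lies among the genes that did not pass.

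Matrix genes stood among the 15 largest rises by fitted log2 fold change, a ranking that depends on the fit for the 10 of them without counts in BM 3D. Wisp2, a secreted matricellular protein of connective tissue, had 92.0 and 154.5 CPM in BM 3W and no counts in either BM 3D library, at least 912.9-fold higher when BM 3D is set at 3 counts per library. Fmod, a collagen-binding proteoglycan, averaged 76.8 ± 1.70 CPM (SD, n = 2) in BM 3W and was also without counts in BM 3D, at least 568.6-fold higher. Col11a1, a minor fibril collagen, had 285.3 and 242.1 CPM in BM 3W, against 0.0405 and 0 CPM in BM 3D. The other 12 were Col4a6, P4ha3, Pstpip1, Pdpn, Has2, Gxylt2, Kcnmb1, Shisa6, Ltbp2, Actg2, Col8a1 and Itgax, and they run from collagen and hyaluronan synthesis (P4ha3, Has2) to smooth muscle actin and channel genes (Actg2, Kcnmb1) and a myeloid integrin (Itgax).

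The 15 largest falls were mostly genes of liver secretion and drug metabolism. Cyp2b10, the drug-inducible cytochrome P450 of mouse liver, headed them and is described with the enzymes. Of the rest, 9 were major urinary protein genes (Mup16, Mup1, Mup14, Mup7, Mup17, Mup11, Mup19, Mup15 and Mup12), near-identical copies of a cluster on chromosome 4 among which reads can be split, so their single values are uncertain. Mup7, the most abundant of them in BM 3D, had 0 and 5.03 CPM in BM 3W, against 578.1 and 1946 CPM in BM 3D, a log2 fold change of -8.96 ± 2.21 (SE; adjusted p = 0.0146) that ran from -17.53 to -7.84 with a library left out. All 9 were at 0 in BM 3W library 1, the BM 3W library with more albumin. Saa1 and Saa2, serum amyloid A genes that are also close copies, Wfdc21, Cyp26a1 and Cyp2f2 completed the list.

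Markers of the labelled cell type were still present at 3 weeks. The 8 hepatocyte markers (Alb, Ttr, Apoa1, Apob, Hnf4a, Cps1, Serpina1a and Trf) summed to 42140 and 7375 CPM in BM 3W, against 47710 and 107100 CPM in BM 3D. The sum was lower in both BM 3W libraries than in both BM 3D libraries, but BM 3W library 1 lay near BM 3D library 1. Albumin made up most of the sum except in BM 3W library 2. Of the 8, Hnf4a and Cps1 fell and 6 did not pass. For 6 of the 8 the groups did not overlap, against 8885 of 14100 genes tested. Albumin had 29180 and 2850 CPM in BM 3W, against 25440 and 71050 CPM in BM 3D, so the groups overlapped (log2 fold change -1.59 ± 1.09, adjusted p = 0.31).

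Stellate cell and fibroblast markers rose in BM 3W. Of 19 tested, 15 rose, none fell and the median log2 fold change was 4.13 (3.66 with genes without counts in BM 3D set at their bound), against -0.0982 over all genes; without BM 3D library 1, 9 rose. Lum (lumican, a fibroblast proteoglycan) had 608.1 and 269.3 CPM in BM 3W, against 2.63 and 3.65 CPM in BM 3D, a log2 fold change of 7.13 ± 0.57 (adjusted p = 4.05e-05). Des (desmin, the stellate cell filament) had 99.6 and 206.9 CPM in BM 3W, against 1.05 and 2.41 CPM in BM 3D. Both genes were higher in both BM 3W libraries by far more than the groups' spread. Pdgfrb, the receptor that drives stellate cell growth, rose by 4.36 ± 0.44 on the log2 scale (adjusted p = 0.000115). Lrat, the retinol-storing enzyme of quiescent stellate cells, had 40.6 and 21.2 CPM in BM 3W, against 3.08 and 15.5 CPM in BM 3D, and did not pass (adjusted p = 0.173). The 21 markers summed to 3075 and 1611 CPM in BM 3W, against 132.7 and 272.5 CPM in BM 3D, with no marker at 0 in all 4 libraries. Gfap and Mfap4 were without counts in BM 3D.

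Macrophage markers rose too. Of 20 tested, 17 rose and 1 fell, with a median log2 fold change of 4.91, and their sum was 3752 and 4544 CPM in BM 3W, against 185.2 and 131.2 CPM in BM 3D. Csf1r, the receptor for the macrophage growth factor CSF1, had 239.0 and 173.8 CPM in BM 3W, against 4.46 and 7.29 CPM in BM 3D (log2 fold change 5.14 ± 0.33, adjusted p = 9.24e-06). C1qa, a complement chain made by macrophages, had 128.7 and 181.8 CPM in BM 3W, against 4.94 and 6.35 CPM in BM 3D. For both genes every BM 3W library lay far above every BM 3D library. Ptprc (CD45, on all white blood cells) rose by 5.05 ± 0.47 (adjusted p = 7.01e-05). Clec4f, which marks resident Kupffer cells in mice, was the marker that fell. It had 0.240 and 0.0898 CPM in BM 3W, against 0.810 and 2.31 CPM in BM 3D (log2 fold change -3.21 ± 0.73, adjusted p = 0.012). The Clec4f call was lost with the 4 libraries alone, and without BM 3W library 2 or BM 3D library 2. Timd4, another resident Kupffer cell marker, was at 0.137 and 0 CPM in BM 3W, against 0.0405 and 0.0493 CPM in BM 3D.

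Some endothelial markers fell. Of 19 tested, 7 fell and 3 rose (36.8% and 15.8%, against 10.9% and 13.5% of all genes). Their median log2 fold change was -1.54, and their sum was 363.8 and 359.5 CPM in BM 3W, against 271.7 and 359.9 CPM in BM 3D. Pecam1 (CD31) had 0.240 and 0.928 CPM in BM 3W, against 28.4 and 40.2 CPM in BM 3D, a log2 fold change of -5.84 ± 1.28 (adjusted p = 0.00825). Cdh5, the cadherin of endothelial junctions, had 1.72 and 1.59 CPM in BM 3W, against 39.2 and 52.9 CPM in BM 3D (log2 fold change -4.80 ± 1.16, adjusted p = 0.0131). Both BM 3W libraries were far below both BM 3D libraries for each gene, yet both calls were lost without BM 3W library 1 (adjusted p = 0.0614 for Pecam1 and 0.0745 for Cdh5). Without BM 3W library 2 that of Cdh5 was lost (adjusted p = 0.0922) and that of Pecam1 was not (adjusted p = 0.0399). Over the list 0 markers fell without BM 3W library 1 and 1 fell without library 2. Rspo3, a Wnt enhancer made by central vein endothelium, was among the 3 that rose, with 23.2 and 16.7 CPM in BM 3W, against 1.54 and 2.12 CPM in BM 3D. Vwf and Ehd3 were the others, lost without BM 3D library 1 (adjusted p = 0.05 and 0.0685), and that of Ehd3 also without BM 3W library 1 (adjusted p = 0.088).

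Markers of the remaining cell types were mixed. Of 17 bile duct and progenitor markers tested, 6 rose and none fell (2 rose without BM 3D library 1 and 3 without either BM 3W library), and the sum of 5344 and 6163 CPM in BM 3W, against 578.4 and 1196 CPM in BM 3D, was mostly Spp1 in BM 3W but not in BM 3D. Spp1 (osteopontin), which bile duct cells, macrophages and activated stellate cells all secrete, had 4338 and 5038 CPM in BM 3W, against 105.6 and 525.0 CPM in BM 3D (log2 fold change 3.89 ± 0.69, adjusted p = 0.00281). Krt19 and Epcam, the usual duct markers, did not pass: Krt19 had 21.5 and 16.9 CPM in BM 3W, against 10.2 and 30.9 CPM in BM 3D. Of 4 mesothelial markers tested, Msln, Wt1 and Gpm6a rose, and the 9 on the list summed to 39.6 and 15.8 CPM in BM 3W, against 1.13 and 3.84 CPM in BM 3D (1 rose without BM 3W library 1 or BM 3D library 1, where the calls of Msln and Gpm6a were lost with adjusted p from 0.0628 to 0.111). Of 17 lymphocyte and granulocyte markers, 7 were at 0 in all 4 libraries (among them Cd8a, Ms4a1 and Mpo), Cd4 passed (adjusted p = 0.0252; 0.0653 to 0.102 with any 1 library left out), at 0.720 and 0.449 CPM in BM 3W and no counts in BM 3D, and the list summed to under 1 CPM in each library.

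**Figure D2:**
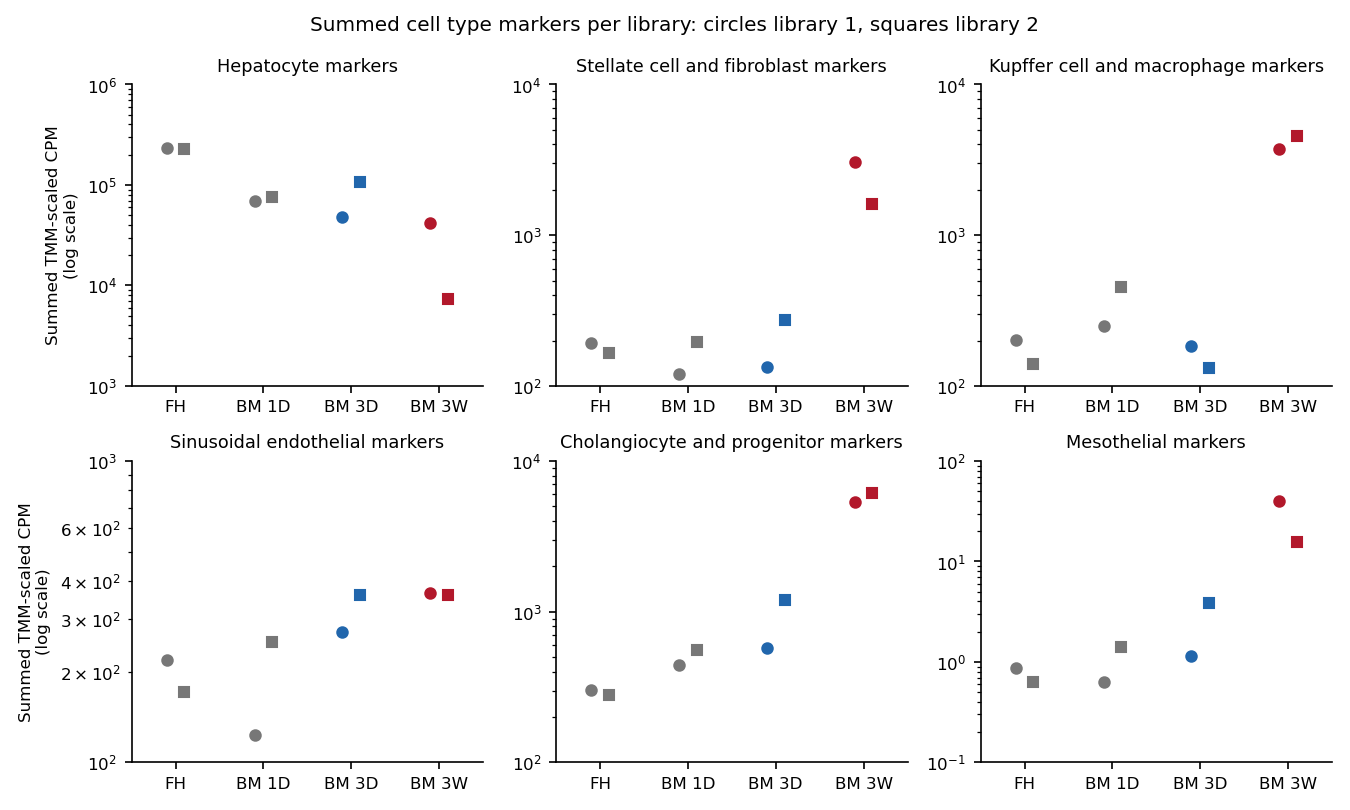
Summed level of 6 cell type marker lists in each library (TMM-scaled CPM, log scale) over time in culture, with FH, BM 1D, BM 3D and BM 3W from left to right; circles are library 1 and squares library 2. Stellate markers stood at 3075 and 1611 CPM in BM 3W and macrophage markers at 3752 and 4544 CPM, above every earlier library, while hepatocyte markers spread from 42140 to 7375 CPM between the BM 3W libraries.

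Fibrillar collagen genes rose in BM 3W. Of 10 tested, 7 rose and none fell, with a median log2 fold change of 5.50, and 7 to 8 rose over the 15 alternative settings. Col1a1, the main chain of type I collagen (chr11:94936224-94953042), had 2092 and 4165 CPM in BM 3W, against 5.67 and 27.3 CPM in BM 3D, a log2 fold change of 7.57 ± 0.81 (adjusted p = 0.000164). Col3a1, the chain of type III collagen (chr1:45311538-45349706), had 3581 and 4815 CPM in BM 3W, against 12.1 and 81.2 CPM in BM 3D, a log2 fold change of 6.49 ± 0.80 (adjusted p = 0.000342). Both BM 3W libraries lay far above both BM 3D libraries, and within each group library 2 was the higher for both genes. Per length, Col1a1 stood at 562.9 and 1141 FPKM (fragments scaled to gene length and library size) in BM 3W and Alb at 15880 and 1915 FPKM, so the collagen message was below that of albumin in both libraries and nearer to it in library 2. The stellate marker sums given above were higher in BM 3W too, and the part of those cells in the collagen and matrix values was not tested.

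The collagens of other classes followed, with 12 of 17 up and none down (median 3.32). Col4a1, a chain of all basement membranes that was chosen after its values were seen, had 1659 and 1600 CPM in BM 3W, against 237.2 and 242.5 CPM in BM 3D (log2 fold change 2.76 ± 0.45, adjusted p = 0.00175). Col14a1, which coats collagen fibrils, had 853.0 and 399.7 CPM in BM 3W, against 6.85 and 21.2 CPM in BM 3D. Col18a1, whose fragment is endostatin, went the other way without passing, at 271.1 and 207.9 CPM in BM 3W, against 384.5 and 817.8 CPM in BM 3D (adjusted p = 0.0575).

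Enzymes that process collagen rose as well, 15 of 24, with 1 fall. Adamts2, which removes the procollagen N-terminus, had 228.4 and 195.6 CPM in BM 3W, against 3.08 and 4.14 CPM in BM 3D (log2 fold change 5.88 ± 0.32, adjusted p = 5.05e-06). Serpinh1 (HSP47, the collagen chaperone) and Loxl1 (a crosslinking oxidase) rose by 4.21 ± 0.55 and 6.45 ± 0.65. P4ha2, a prolyl hydroxylase subunit, was the fall, with 24.3 and 26.4 CPM in BM 3W, against 48.3 and 75.5 CPM in BM 3D (adjusted p = 0.0445), and that call was lost in 9 of 15 alternatives, among them without either BM 3W library (adjusted p = 0.162 and 0.151) or BM 3D library 2 (adjusted p = 0.198).

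Of 31 matrix glycoproteins and proteoglycans, 20 rose and none fell (median 3.58; 3.25 with bounds). Sparc, a collagen-binding glycoprotein, had 1635 and 2091 CPM in BM 3W, against 49.2 and 84.9 CPM in BM 3D (log2 fold change 4.80 ± 0.59, adjusted p = 0.000345). Fbn1 (fibrillin, the core of microfibrils) averaged 413 ± 19.9 CPM in BM 3W and 9.41 ± 1.74 CPM in BM 3D (SD, n = 2 each), and Bgn, Fbln2 and Thbs2 rose by 5.56, 6.86 and 6.36 on the log2 scale. Fn1 (fibronectin), which hepatocytes secrete into plasma, was the most abundant of the list in every library and did not pass, at 6978 and 7192 CPM in BM 3W, against 5774 and 17130 CPM in BM 3D.

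Matrix proteases and their inhibitors rose in 16 of 26 cases with no fall. Mmp12, the macrophage elastase, had 1042 and 411.4 CPM in BM 3W, against 0.243 and 3.60 CPM in BM 3D (log2 fold change 8.59 ± 1.01, adjusted p = 0.000274). Mmp2, a gelatinase of stromal cells, rose by 6.16 ± 0.66, and Timp2, a metalloprotease inhibitor, by 5.55 ± 0.35. Mmp14, which activates MMP2 at the cell surface, had 284.8 and 391.2 CPM in BM 3W, against 98.8 and 199.8 CPM in BM 3D, and did not pass (adjusted p = 0.135). Of 16 integrins, 9 rose and 1 fell (5 rose without BM 3D library 1 or BM 3W library 2), led by Itga8 and Itga1, which bind matrix on stellate cells and fibroblasts. Itgb1, the shared beta chain, had 977.9 and 695.2 CPM in BM 3W, against 588.1 and 513.7 CPM in BM 3D, and did not pass.

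The TGF-beta pathway, which drives matrix production in liver fibrosis, rose in 13 of 28 tested members with no fall (median 1.08; 8 to 21 over the alternatives). Among the ligands, Tgfb1 had 59.3 and 46.3 CPM in BM 3W, against 7.58 and 7.83 CPM in BM 3D (log2 fold change 2.78 ± 0.64, adjusted p = 0.0107), a call lost without BM 3D library 1 (adjusted p = 0.0621) or library 2 (adjusted p = 0.0529). Tgfb3 had 51.4 and 63.0 CPM in BM 3W, against 1.38 and 1.38 CPM in BM 3D (log2 fold change 5.37 ± 0.52, adjusted p = 9.37e-05). The Tgfb1 and Tgfb3 values of BM 3W did not overlap those of BM 3D, and Tgfb2 was also higher in both BM 3W libraries but missed the threshold (adjusted p = 0.063). The latent-complex genes Ltbp1 and Ltbp4 rose by 3.78 and 4.25, and Fstl1, a secreted pathway modulator, by 5.58. The receptors Tgfbr1 and Tgfbr2, named after their values were seen, rose by 1.13 ± 0.21 and 1.28 ± 0.18. Smad3, a signal transducer, had 76.3 and 113.2 CPM in BM 3W, against 59.8 and 46.6 CPM in BM 3D, and did not pass (adjusted p = 0.0709).

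Of 21 genes known as YAP and TEAD targets, 4 rose and 2 fell, 19% and 9.52% against 13.5% and 10.9% of all genes, with a median of 0.43. Over the alternatives 3 to 9 rose and 0 to 4 fell, with 4 falls without BM 3D library 2, 0 without BM 3W library 2 and 1 without either of the other libraries. The common readouts did not pass. Ctgf had 719.0 and 902.0 CPM in BM 3W, against 351.0 and 535.1 CPM in BM 3D (log2 fold change 0.87 ± 0.57, adjusted p = 0.29), with no overlap. Cyr61 overlapped, at 256.2 and 279.1 CPM in BM 3W, against 316.1 and 126.7 CPM in BM 3D. Ankrd1, a muscle ankyrin-repeat protein, averaged 214 ± 31.7 CPM in BM 3W and 69.4 ± 50.4 CPM in BM 3D (SD, n = 2 each; log2 fold change 1.62 ± 0.68, adjusted p = 0.104). In FH these genes stood lower than in either group: Ctgf had 1.91 and 1.66 CPM, Cyr61 14.9 and 12.7 CPM, and Ankrd1 0.477 and 0.317 CPM.

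The 4 that rose were Arhgef17, Axl, Amotl1 and Igfbp3. Axl, a receptor kinase also found on macrophages, had 252.6 and 200.6 CPM in BM 3W, against 10.4 and 12.9 CPM in BM 3D (log2 fold change 4.29 ± 0.41, adjusted p = 8.75e-05). Arhgef17, a guanine nucleotide exchange factor of the cytoskeleton, rose by 3.78 ± 0.34 and Amotl1, a junction protein that binds YAP, by 2.67 ± 0.39. Igfbp3 rose by 1.89 ± 0.58 (adjusted p = 0.0366). Its call was lost with the 4 libraries alone, and without BM 3D library 1 or either BM 3W library. Wwc1 (KIBRA), an upstream member of the Hippo pathway that restrains YAP, fell, with 76.3 and 59.7 CPM in BM 3W, against 129.2 and 138.2 CPM in BM 3D (log2 fold change -0.98 ± 0.20, adjusted p = 0.00541). The Wwc1 call was lost with the 4 libraries alone and without BM 3W library 2. Dock5 was the other fall (adjusted p = 0.0402), lost in 11 of 15 alternatives, among them without either BM 3W library (adjusted p = 0.113 and 0.184) or BM 3D library 1 (adjusted p = 0.189). Yap1 itself averaged 87.9 ± 10.8 CPM in BM 3W and 111 ± 12.6 CPM in BM 3D (SD, n = 2 each) and did not pass (adjusted p = 0.208).

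The promoters of 3 genes are shown because they let the TEAD hexamer be seen beside a YAP target that did not pass, a collagen that rose and the P450 that fell most; the 3 were chosen after their values and matches were seen. Each run is the 250 bases before the RefSeq start on GRCm38.p6, 5′ to 3′ on the gene's strand, and capitals mark the hexamer GGAATG or, on the other strand, CATTCC. The Ankrd1 window is chr19:36119845-36120094 (minus strand), with matches that begin 210 and 123 bases before the start; that of Col3a1 is chr1:45311288-45311537 (plus strand), with 1 match at 168 bases; that of Cyp2b10 is chr7:25897408-25897657 (plus strand), with 1 match at 146 bases.
Ankrd1: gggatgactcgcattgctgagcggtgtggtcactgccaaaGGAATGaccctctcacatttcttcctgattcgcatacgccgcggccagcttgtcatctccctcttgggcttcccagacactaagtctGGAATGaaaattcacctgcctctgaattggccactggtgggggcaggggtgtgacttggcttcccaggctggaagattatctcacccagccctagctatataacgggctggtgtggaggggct
Col3a1: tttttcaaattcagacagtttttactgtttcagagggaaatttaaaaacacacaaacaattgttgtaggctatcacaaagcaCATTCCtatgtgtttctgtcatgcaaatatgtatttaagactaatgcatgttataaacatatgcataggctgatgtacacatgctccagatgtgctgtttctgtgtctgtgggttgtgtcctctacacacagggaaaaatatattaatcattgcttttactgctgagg
Cyp2b10: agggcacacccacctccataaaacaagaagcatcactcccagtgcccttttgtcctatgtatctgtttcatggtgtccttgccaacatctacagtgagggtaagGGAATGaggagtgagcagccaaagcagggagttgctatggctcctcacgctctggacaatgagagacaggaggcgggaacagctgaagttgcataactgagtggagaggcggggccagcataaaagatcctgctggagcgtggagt
The hexamer is short and common: 4153 of 32851 RefSeq promoters of this length hold it on either strand (12.6%). It was in 247 of 1869 promoters of genes that rose (13.2%), in 168 of 1530 of genes that fell (11%) and in 1103 of 10447 of tested genes that did not pass (10.6%). These are counts of letters, not of bound sites.

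Of 32 genes of the actin cytoskeleton and contraction, 10 rose and 2 fell (31.2% and 6.25%, against 13.5% and 10.9% of all genes). Their median log2 fold change was 0.24. With the 4 libraries alone 8 rose and 0 fell. Acta2, the smooth muscle actin of activated stellate cells, had 816.3 and 626.4 CPM in BM 3W, against 6.44 and 10.5 CPM in BM 3D (log2 fold change 6.41 ± 0.59, adjusted p = 6.69e-05). Tagln (SM22) had 435.8 and 458.0 CPM in BM 3W, against 8.02 and 11.8 CPM in BM 3D, 45.1-fold higher (log2 fold change 5.49 ± 0.30, adjusted p = 5.05e-06). The BM 3W libraries were close to each other and far above BM 3D for both genes. Cnn2 and Tpm1 rose by 3.02 ± 0.57 and 1.73 ± 0.30. Actb, the general actin, had 1828 and 1848 CPM in BM 3W, against 1474 and 2228 CPM in BM 3D (log2 fold change -0.01 ± 0.34).

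Among factors of the epithelial to mesenchymal transition, 6 of 18 rose and 1 fell. Zeb2 had 179.4 and 97.8 CPM in BM 3W, against 7.58 and 6.99 CPM in BM 3D (log2 fold change 4.25 ± 0.55, adjusted p = 0.000437). Prrx1, Snai1 and S100a4 rose by 5.86, 3.78 and 6.06. Zeb2 is known from macrophages and Prrx1 from fibroblasts, whose markers were also higher in BM 3W (sums above); their part in these values was not tested. Snai2, Twist1 and Zeb1 did not pass. Vim (vimentin) rose, with 880.7 and 1009 CPM in BM 3W, against 199.9 and 318.2 CPM in BM 3D (log2 fold change 1.87 ± 0.55, adjusted p = 0.0305), but the call was lost when any 1 of the 4 libraries was left out (adjusted p from 0.0607 to 0.16). The epithelial cadherin Cdh1 overlapped, at 234.8 and 181.3 CPM in BM 3W, against 257.7 and 214.0 CPM in BM 3D, and Esrp2, a splicing factor of epithelia and adult liver, fell by 1.59 ± 0.32 on the log2 scale (adjusted p = 0.00537; 0.0543 without BM 3W library 2).

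Of 8 keratins tested, 2 fell and 1 rose (25% and 12.5%, against 10.9% and 13.5% of all genes), with a median log2 fold change of 0.30. Krt8, the hepatocyte keratin, had 613.4 and 715.3 CPM in BM 3W, against 1383 and 3131 CPM in BM 3D (log2 fold change -1.76 ± 0.42, adjusted p = 0.0129). Its partner Krt18 had 576.1 and 591.1 CPM in BM 3W, against 1032 and 2394 CPM in BM 3D (adjusted p = 0.0328). Both calls were lost with the 4 libraries alone, and that of Krt18 also with total counts and on FPKM. Both BM 3W libraries lay below both BM 3D libraries, and both calls were lost without BM 3D library 2 (adjusted p = 0.0903 for Krt8 and 0.231 for Krt18) or BM 3W library 1 (adjusted p = 0.063 for Krt8 and 0.114 for Krt18), that of Krt18 also without BM 3W library 2 (adjusted p = 0.123). Krt7, the duct keratin, rose, with 21.0 and 18.0 CPM in BM 3W, against 2.11 and 2.46 CPM in BM 3D (adjusted p = 0.0175), and was lost when any 1 library was left out (adjusted p from 0.0594 to 0.0822).

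**Figure D3:**
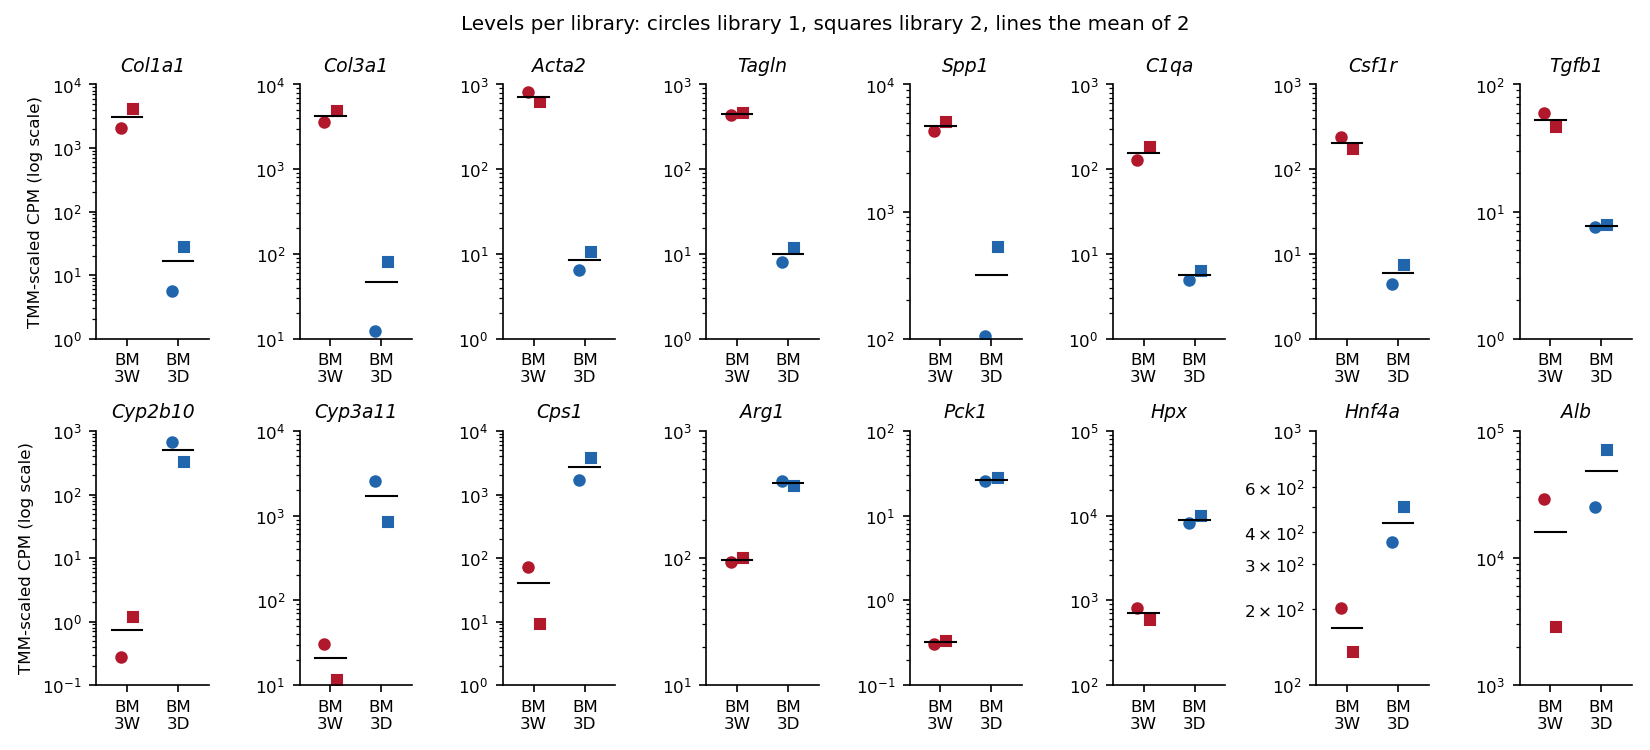
Level of 16 genes in each library (TMM-scaled CPM, log scale), BM 3W left and BM 3D right; circles are library 1, squares library 2 and lines the mean of the 2. The 8 genes of the upper row were higher in both BM 3W libraries, and 7 of the lower row were lower in both; Alb, at 29180 and 2850 CPM in BM 3W, overlapped BM 3D.

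Genes of drug metabolism fell at 3 weeks, beside hepatocyte marker sums of 42140 and 7375 CPM in BM 3W, against 47710 and 107100 CPM in BM 3D, whose part in these falls was not tested. Of 38 cytochrome P450 and other phase I genes, 16 fell and 1 rose, with a median of -2.29, and 11 to 19 fell over the alternatives. Cyp2b10 (chr7:25897658-25926624) had 0.274 and 1.20 CPM in BM 3W, against 679.4 and 320.2 CPM in BM 3D (log2 fold change -9.38 ± 0.97, adjusted p = 0.000132). Cyp3a11, the main mouse enzyme of the drug-oxidising CYP3A family, had 30.5 and 11.6 CPM in BM 3W, against 2557 and 839.4 CPM in BM 3D (log2 fold change -6.34 ± 1.11, adjusted p = 0.00263). Both BM 3W libraries lay far below both BM 3D libraries for each enzyme. Por, the reductase that feeds electrons to all microsomal P450s, averaged 74.5 ± 2.27 CPM in BM 3W and 291 ± 14.4 CPM in BM 3D (SD, n = 2 each; adjusted p = 0.000598). Cyp2c70, Ces3a and Cyp2f2 fell by 3.86, 4.87 and 6.50 on the log2 scale.

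Some P450s were already low in BM 3D. Cyp2e1, the ethanol-oxidising enzyme, had 74.4 and 4.19 CPM in BM 3W, against 4.50 and 8.96 CPM in BM 3D. The FH libraries held 19970 and 21060 CPM of it. Cyp1a2 also overlapped between BM 3W and BM 3D. The gene that rose was Cyp1b1, a P450 of mesenchymal rather than liver parenchymal cells, with 16.7 and 10.96 CPM in BM 3W, against 0.324 and 0 CPM in BM 3D (log2 fold change 6.29 ± 1.03, adjusted p = 0.0018).

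Of 33 genes of phase II conjugation 18 fell and none rose (median -1.53; 6 to 20 fell over the alternatives, 11 with the 4 libraries alone). Sult1a1, a phenol sulfotransferase, had 46.8 and 7.82 CPM in BM 3W, against 715.4 and 462.0 CPM in BM 3D (log2 fold change -4.43 ± 0.67, adjusted p = 0.00117). Glyat, which couples acids to glycine, fell by 3.05 ± 0.30 on the log2 scale (adjusted p = 0.000108), and Sult1d1 and Ugt2a3 by 3.85 and 3.73. Of 22 transporters of drugs and bile acids, 8 fell (2 without BM 3W library 2 and 5 without either BM 3D library). Slco1a4, an uptake carrier, averaged 0.758 ± 0.480 CPM in BM 3W and 27.4 ± 32.1 CPM in BM 3D (SD, n = 2 each; adjusted p = 0.00259). Slc10a1 (NTCP), the main bile salt importer, overlapped at 10.3 and 0.719 CPM in BM 3W, against 6.04 and 23.6 CPM in BM 3D. In bile acid synthesis 8 of 15 fell and 1 rose (5 fell without BM 3W library 2). Cyp27a1, the sterol 27-hydroxylase, averaged 14.6 ± 4.95 CPM in BM 3W and 116 ± 9.84 CPM in BM 3D. Cyp7a1, the rate-limiting enzyme, was near 0 in all, at 1.10 and 0.0898 CPM in BM 3W, against 2.63 and 0.148 CPM in BM 3D.

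The urea cycle and amino acid breakdown had the largest share of falls of the lists examined, 23 of 35 with no rise and a median of -2.30 (13 without BM 3W library 2). Cps1, the entry enzyme of the urea cycle, had 72.5 and 9.07 CPM in BM 3W, against 1687 and 3783 CPM in BM 3D (log2 fold change -6.07 ± 0.95, adjusted p = 0.00142). Ass1, the next cytosolic step, had 41.1 and 16.0 CPM in BM 3W, against 233.3 and 256.9 CPM in BM 3D (log2 fold change -3.10 ± 0.55, adjusted p = 0.00268). Arg1, which releases urea, had 92.9 and 99.5 CPM in BM 3W, against 402.0 and 370.4 CPM in BM 3D (log2 fold change -2.01 ± 0.31, adjusted p = 0.00122). None of these 3 overlapped. Otc, the mitochondrial step between them, overlapped, at 12.8 and 1.05 CPM in BM 3W, against 28.9 and 8.96 CPM in BM 3D. Cbs, Got1 and Aass, of methionine, aspartate and lysine metabolism, fell by 1.94, 1.98 and 4.12 on the log2 scale.

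Secreted plasma proteins depended on the library. Of 20 acute phase proteins 10 fell and none rose (median -1.99). Hpx (hemopexin, the heme scavenger) had 818.0 and 582.3 CPM in BM 3W, against 8153 and 9804 CPM in BM 3D (log2 fold change -3.68 ± 0.48, adjusted p = 0.000499). Lbp and Hp (haptoglobin) fell by 3.25 ± 0.39 and 2.69 ± 0.51 on the log2 scale. Of 31 coagulation and complement genes 11 fell (35.5%, against 10.9% of all genes), and 2 fell with the 4 libraries alone. Their median log2 fold change was -1.43, and ran from -2.45 without BM 3W library 1 to -0.86 without BM 3D library 2. Mbl2, a lectin that starts complement, averaged 5.86 ± 4.81 CPM in BM 3W and 220 ± 70.1 CPM in BM 3D. Of 25 plasma carriers and apolipoproteins 5 fell, with 17 falls without BM 3W library 1, 2 without library 2, 3 without BM 3D library 1 and 1 without BM 3D library 2. All 25 carriers were higher in BM 3W library 1 than in BM 3W library 2, by a median of 1.85 on the log2 scale, against 7539 of 14100 genes. Apoa1, for example, had 1891 and 126.1 CPM in BM 3W, against 5650 and 4690 CPM in BM 3D (adjusted p = 0.0801).

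Some hepatocyte transcription factors fell: of 26 tested, 8 fell and none rose (median -0.46), and 2 fell with the 4 libraries alone. The median was -0.33 without BM 3W library 2 and -0.23 without BM 3D library 2. Hnf4a, the nuclear receptor central to hepatocyte identity, had 201.0 and 135.4 CPM in BM 3W, against 366.0 and 500.4 CPM in BM 3D (log2 fold change -1.36 ± 0.32, adjusted p = 0.0108). The Hnf4a call was lost with the 4 libraries alone, and without BM 3W library 2 or BM 3D library 2. Nr1i2 (PXR), a drug sensor of Cyp3a genes, fell, with 9.64 and 6.95 CPM in BM 3W, against 23.0 and 72.7 CPM in BM 3D (adjusted p = 0.0135; 0.0515 to 0.101 without either BM 3W library or BM 3D library 2). Nr1i3 (CAR), the sensor that induces Cyp2b10, overlapped at 2.50 and 0.419 CPM in BM 3W, against 1.34 and 2.66 CPM in BM 3D, and so did Cebpa and Foxa2.

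Energy metabolism fell in part. Of 16 genes of liver glucose metabolism 7 fell and none rose (4 without BM 3W library 2 or BM 3D library 2). Pck1, the control step of glucose synthesis, had 0.309 and 0.329 CPM in BM 3W, against 25.8 and 27.5 CPM in BM 3D (log2 fold change -6.36 ± 0.98, adjusted p = 0.0013), with tight duplicates in each group. G6pc and Fbp1 did not pass. Of 29 genes of fatty acid oxidation 8 fell (2 without BM 3W library 2 or BM 3D library 2), among them Etfdh and Pex11a, while Cpt1a did not pass. In cholesterol and fatty acid synthesis 7 of 30 fell and 1 rose, Scd2, a desaturase best known from brain (adjusted p = 0.0371; 0.0679 to 0.136 with any 1 library left out), and 0 fell without BM 3W library 2 or BM 3D library 2 and 4 without BM 3D library 1. Of 26 nuclear subunits of the respiratory chain 2 fell, Cox4i1 and Ndufb9 (7.69%, against 10.9% of all genes). Both calls were lost without BM 3W library 2, and none of the 26 fell with total counts or on FPKM. All 26 had negative log2 fold changes in the main fit (median -0.66, from -1.07 to -0.47). For 25 of them the groups did not overlap, against 8885 of 14100 genes tested.

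**Figure D4:**
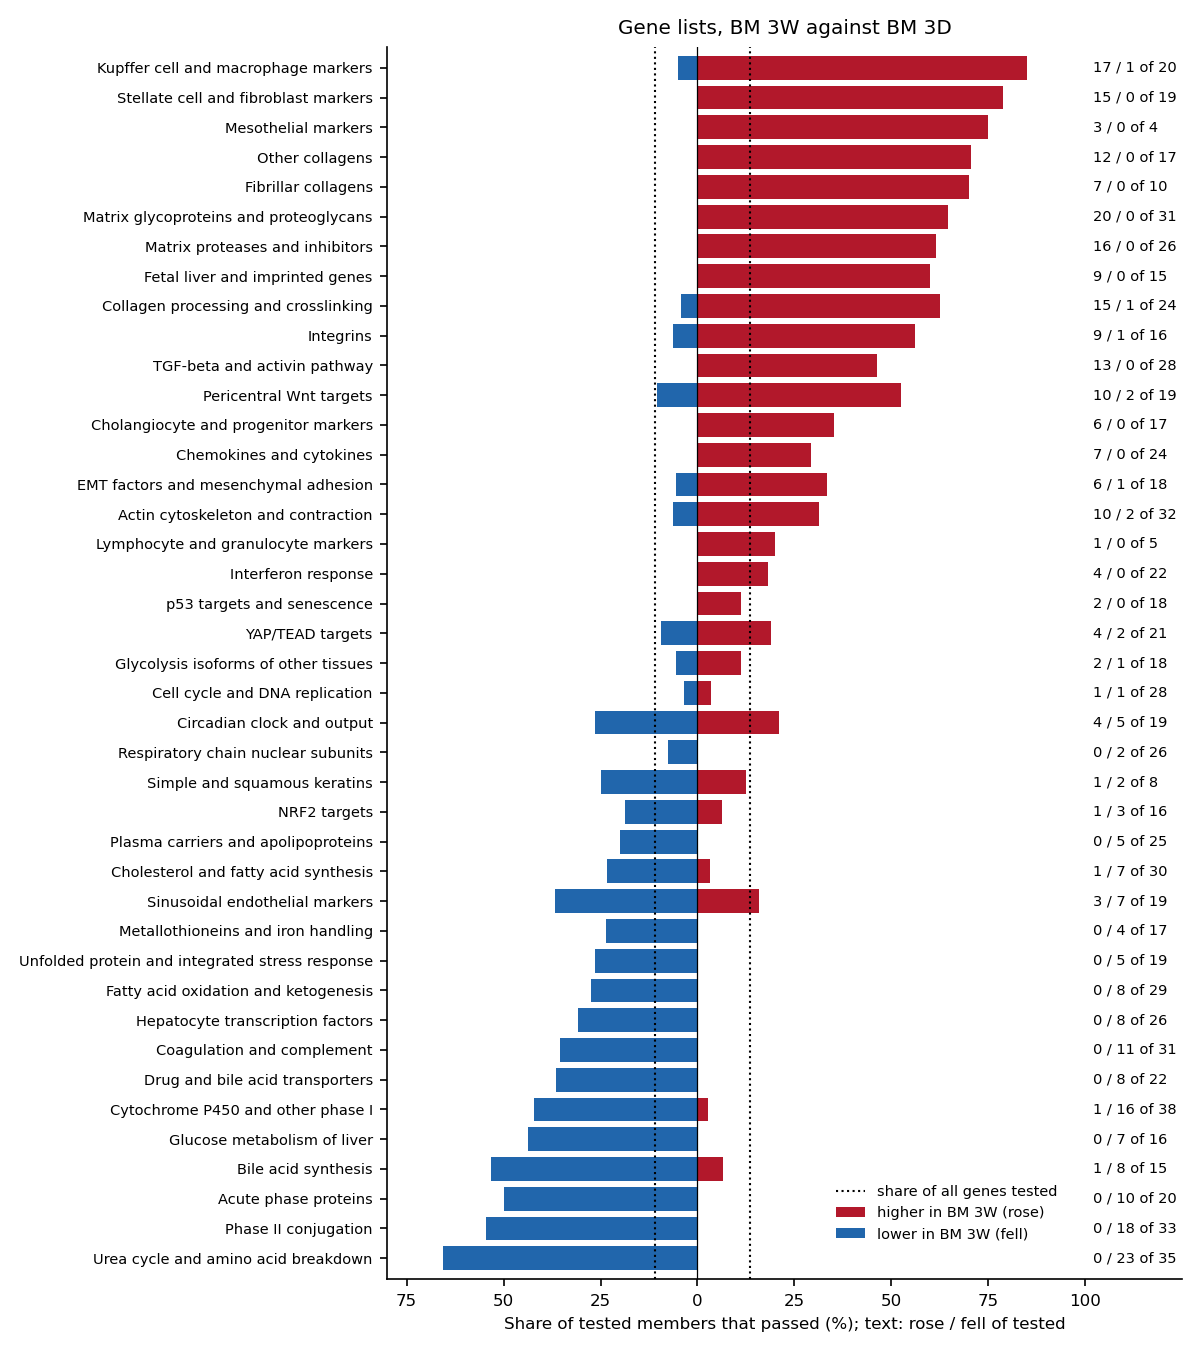
Share of tested members of 41 gene lists that rose (red, right of 0) or fell (blue, left of 0) in BM 3W against BM 3D, in percent, with the counts at the right; dotted lines mark the shares of all tested genes, 13.5% and 10.9%. Macrophage, stellate, mesothelial and collagen lists reach farthest to the right, and urea cycle, phase II and bile acid lists farthest to the left.

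Several of the genes that fell had not fallen steadily since isolation. Cyp2b10 and Cyp3a11 were higher in BM 3D than in BM 1D: Cyp2b10 averaged 1.63 CPM in FH, 25.5 CPM in BM 1D, 500 CPM in BM 3D and 0.736 CPM in BM 3W. Sult1a1 had 529.5 and 546.8 CPM in FH, 41.3 and 58.8 CPM in BM 1D, 715.4 and 462.0 CPM in BM 3D and 46.8 and 7.82 CPM in BM 3W. Cps1 had 13500 and 13420 CPM in FH, 208.1 and 312.6 CPM in BM 1D, 1687 and 3783 CPM in BM 3D and 72.5 and 9.07 CPM in BM 3W. Pck1 had 6426 and 6275 CPM in FH, and 12.3 and 11.1 CPM in BM 1D. Krt8 ran the other way early, from 198.3 and 210.4 CPM in FH through 4236 and 4102 CPM in BM 1D and 1383 and 3131 CPM in BM 3D to 613.4 and 715.3 CPM in BM 3W. These are levels, with no test between times other than BM 3W against BM 3D.

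**Figure D5:**
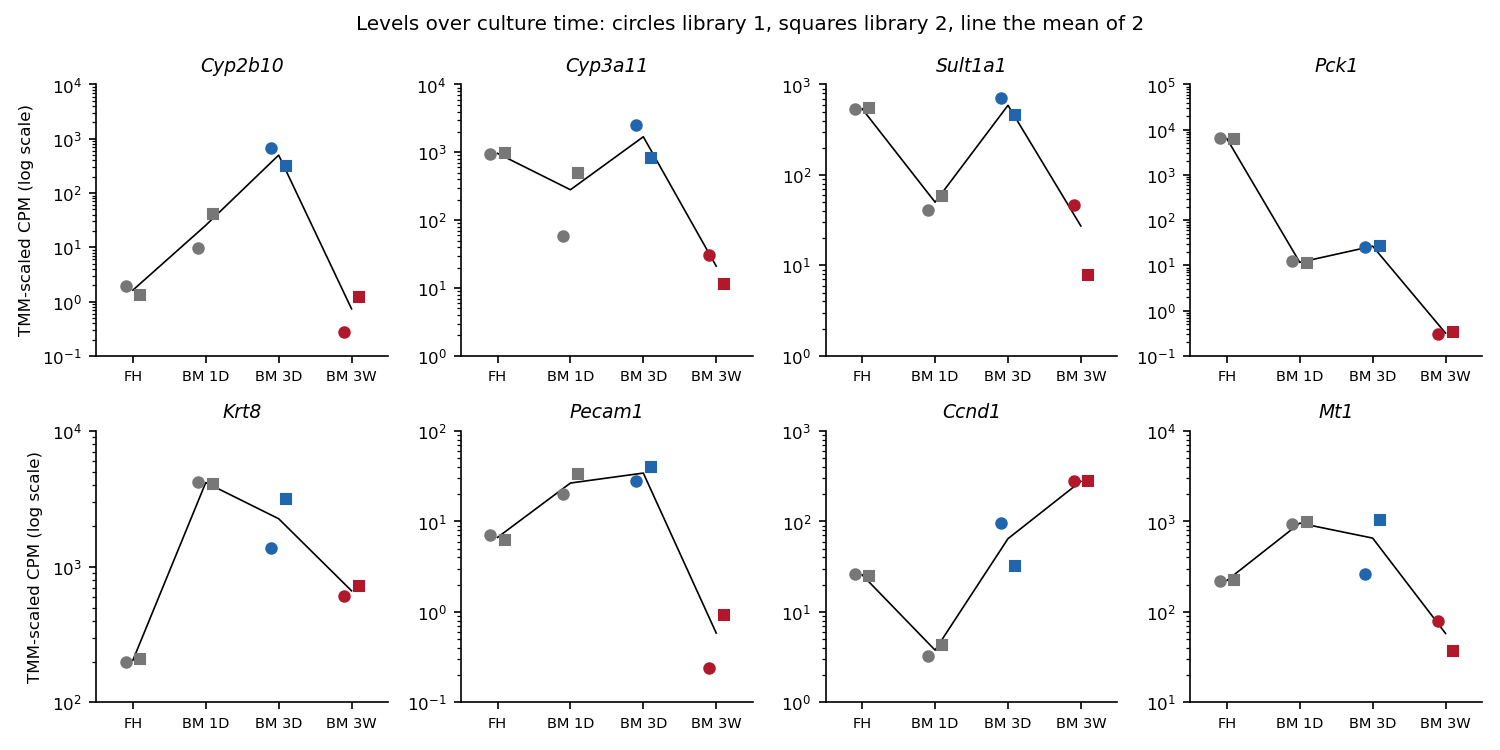
Level of 8 genes in each library (TMM-scaled CPM, log scale) over time in culture, with FH, BM 1D, BM 3D and BM 3W from left to right; circles are library 1, squares library 2 and the line joins the means. Cyp2b10 peaked in BM 3D at 679.4 and 320.2 CPM and Pck1 had dropped by BM 1D to 12.3 and 11.1 CPM, while Ccnd1 reached its highest level, 276.6 and 280.1 CPM, in BM 3W.

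Few cell cycle genes passed. Of 28, 1 rose and 1 fell, 3.57% each, against 13.5% and 10.9% of all genes. In 3 of the 28 the groups did not overlap, against 8885 of 14100 genes tested. The median log2 fold change was -0.74, and it ran from -1.43 without BM 3D library 2 to 0.61 without BM 3D library 1. Ccnd1 (cyclin D1), the G1 cyclin, had 276.6 and 280.1 CPM in BM 3W, against 96.7 and 32.5 CPM in BM 3D (log2 fold change 2.11 ± 0.64, adjusted p = 0.0341), lost without BM 3D library 2 (adjusted p = 0.16) or either BM 3W library (adjusted p = 0.0867 and 0.101). Mki67, present in all dividing cells, had 108.4 and 44.3 CPM in BM 3W, against 187.9 and 23.4 CPM in BM 3D. All 28 genes were higher in BM 3D library 1 than in BM 3D library 2, and 27 were higher in BM 3W library 1 than in BM 3W library 2. Of 18 genes of the p53 and senescence list 2 rose, 11.1% against 13.5% of all genes, and both are inhibitors of the cycle. Cdkn2a had 3.12 and 8.65 CPM in BM 3W, against 0 and 0.0493 CPM in BM 3D (adjusted p = 0.0035). Cdkn2b averaged 39.0 ± 16.6 CPM in BM 3W and 3.21 ± 0.192 CPM in BM 3D (adjusted p = 0.00639; 0.0538 without BM 3W library 2). Cdkn1a and Mdm2, direct p53 targets, overlapped.

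Genes of fetal liver and of genomic imprinting rose in 9 of 15 cases with no fall (median 2.51; 4 rose without BM 3W library 1 or BM 3D library 2 and 5 without BM 3D library 1). Afp (alpha-fetoprotein, the fetal counterpart of albumin) had 792.9 and 259.5 CPM in BM 3W, against 14.5 and 127.1 CPM in BM 3D (log2 fold change 2.90 ± 0.80, adjusted p = 0.0243). The Afp call was lost with the 4 libraries alone and without BM 3W library 1. Cdkn1c and Peg10, imprinted genes, rose by 4.15 ± 0.46 and 2.69 ± 0.47, each higher in both BM 3W libraries than in both BM 3D libraries.

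In stress and immune lists a minority of genes passed. Of 19 unfolded protein response and integrated stress response genes, 5 fell (26.3%, against 10.9% of all genes) and none rose. Their median log2 fold change was -0.61, and ran from -0.91 without BM 3D library 1 to -0.38 without BM 3D library 2. Herpud1, a degradation factor of the endoplasmic reticulum, had 75.5 and 56.7 CPM in BM 3W, against 216.3 and 296.9 CPM in BM 3D (adjusted p = 0.00358), and Asns fell by 1.55 ± 0.31 on the log2 scale. Of 16 NRF2 targets 3 fell and 1 rose (18.8% and 6.25%, against 10.9% and 13.5% of all genes). Their median log2 fold change was -0.47, and ran from -0.84 without BM 3W library 2 to -0.10 without BM 3W library 1. Gclc, of glutathione synthesis, had 314.2 and 393.0 CPM in BM 3W, against 1487 and 1670 CPM in BM 3D (adjusted p = 0.0128). That call was lost without either BM 3W library, and Nqo1 and Hmox1 overlapped. Of 24 chemokines and cytokines 7 rose and none fell (4 without BM 3D library 2). Cxcl12, a chemokine of stromal cells, had 320.9 and 172.2 CPM in BM 3W, against 29.7 and 40.2 CPM in BM 3D (adjusted p = 0.000441). Csf1, the ligand of the macrophage receptor CSF1R, had 151.6 and 137.4 CPM in BM 3W, against 34.9 and 37.9 CPM in BM 3D (adjusted p = 0.0127; 0.0718 without BM 3D library 1 and 0.055 without library 2). Of 22 interferon response genes 4 rose (18.2%, against 13.5% of all genes), with 0 rises without BM 3W library 1 and 1 without either BM 3D library.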

How the data were processed

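The series measured messenger RNA from paired-end libraries of a stranded kit, per the labels' protocols. The authors deposited whole-number read counts per gene, not normalized, and FPKM values per gene. The submitters' processing notes name Trimmomatic, HISAT2, HTSeq, Cufflinks and DESeq and the build GRCm38.p6; the strand setting used for counting was not given in the sources used here, so overlapping and antisense genes are uncertain. Counts of all 14 libraries were fitted in 1 model with group means by edgeR 4.0.16 (R 4.3.3; filterByExpr, TMM, quasi-likelihood F test, Benjamini-Hochberg over 14100 of the 21878 genes in the table), and BM 3W was contrasted with BM 3D; genes with adjusted p below 0.05 are said to rise or fall. FPKM, deposited by the authors, was used in alternatives with limma 3.58.1 on log2(FPKM + 1) and log2(FPKM + 0.1), the first without and both with a mean of at least 0.5; DESeq2 1.42.0 was another alternative. SE is the size of the log2 fold change divided by the root of F. A simulation with 200 changed genes gave 172 recovered and 11 false calls. It gave every group the same spread at a given level, whereas the real duplicates differed in spread between groups (below). Its counts therefore do not give the error rates of this contrast.

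Members and gene lists were chosen with earlier results of these data known, and lists are given by counts and medians with no test of their own. Genes named as changed are panel genes, the 15 largest rises and falls among genes with a mean of 10 CPM or more in whichever group is higher and libraries that do not overlap, and up to 5 called members of each list by smallest p (3 in the other direction), with exceptions stated. Coordinates and promoter sequences are from RefSeq, GRCm38.p6, where 21727 gene IDs matched. Duplicates of BM 3W and BM 3D differed by far more than counting noise (chi-square per degree of freedom 152.3 and 178.3). Over the groups of the series this value ran from 4.04 in FH Yap-/- to 235.2 in LBDXL 3W, and the fit pools them. With the 4 libraries alone 2447 genes were called. The number of counts limits precision little here beside the spread between 2 libraries. Some genes are not reported here.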

Additional observations from a re-analysis of the deposited data

How the results depend on the processing

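All calls shared between the main fit and any alternative had the same direction. With the limit of a log2 fold change beyond 1, 1442 genes passed (1138 rose, 304 fell). The falls numbered 704 with total counts, 623 with the 4 libraries alone, 701 and 682 on log2(FPKM + 1) and log2(FPKM + 0.1), and 761 on log2(FPKM + 1) with no filter, where 4049 rose. Leaving out each library, which leaves a group of 1 whose spread is assumed to be that of the other groups, gave 1664 to 2480 calls (1142 to 1332 rises, 522 to 1148 falls). Deviations of same-numbered libraries were nearly uncorrelated between BM 3W and BM 3D (r = 0.0641). With 2 libraries a group this cannot show whether same-numbered libraries share an animal or preparation. With the replicate block 2015 rose and 1729 fell. Of the 235 genes open to naming and reported here, 223 were called and 129 stayed called under every alternative that could test them. Signs reversed only for genes that did not pass. With a library left out, log2 fold changes ran from -0.0506 to 0.673 for Cdkn1a and from -0.0428 to 0.548 for Cebpa, each lowest without BM 3D library 1. Glul was at 0.0619 on log2(FPKM + 1) with or without filter and at 0.0638 on log2(FPKM + 0.1). Krt19 was at 0.0282 with DESeq2 size factors, 0.0271 with the DESeq2 Wald test, 0.30 with total counts, 0.12 with the block, 0.44 on log2(FPKM + 1) with or without filter, 0.48 on log2(FPKM + 0.1), and -0.69 to 0.90 with a library left out. Mki67 was at 0.19 on log2(FPKM + 1) with or without filter, 0.34 on log2(FPKM + 0.1), and -1.30 to 1.70 with a library left out. Yap1 was at 0.0108 with total counts, 0.0590 on log2(FPKM + 1) with or without filter and 0.0613 on log2(FPKM + 0.1). The cause was not tested. Depth, 17704762 counts or more in each of the 4 libraries, limits only genes near 0 counts.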

Other observations

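Of 19 genes known as Wnt targets around the central vein, 10 rose and 2 fell (Rhbg and Cyp27a1), with a median log2 fold change of 1.96 against -0.0982 over all genes, and 5 rose without BM 3W library 1 and 6 without BM 3D library 1. Axin2, a feedback inhibitor of Wnt signalling, had 9.53 and 18.8 CPM in BM 3W, against 0.203 and 0.246 CPM in BM 3D (log2 fold change 5.95 ± 0.76, adjusted p = 0.000424). Nkd1, another feedback inhibitor, had 10.9 and 6.95 CPM in BM 3W, against 0.284 and 0.345 CPM in BM 3D (log2 fold change 4.80 ± 0.48, adjusted p = 0.000108). Both BM 3W libraries were above both BM 3D libraries for each gene. Glul (glutamine synthetase) overlapped, at 102.9 and 73.6 CPM in BM 3W, against 127.0 and 92.9 CPM in BM 3D, and stood at 2322 and 2129 CPM in FH. The list summed to 510.2 and 344.5 CPM in BM 3W, against 353.7 and 319.2 CPM in BM 3D, and to 28760 and 29570 CPM in FH. Stellate markers (3075 and 1611 CPM in BM 3W, against 132.7 and 272.5 CPM in BM 3D) and macrophage markers (3752 and 4544 CPM in BM 3W, against 185.2 and 131.2 CPM in BM 3D) were higher too, and their part in these rises was not tested.

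Genes of the circadian clock changed in both directions. Of 19, 4 rose and 5 fell (21.1% and 26.3%, against 13.5% and 10.9% of all genes). With total counts or with the 4 libraries alone 4 rose and 3 fell. The median log2 fold change was -0.55. It was -0.23 without BM 3W library 2 and -0.28 without BM 3D library 2. Nr1d1, a repressor of the clock, had 23.0 and 20.3 CPM in BM 3W, against 4.98 and 6.90 CPM in BM 3D (log2 fold change 1.86 ± 0.25, adjusted p = 0.000534), and Dbp and Per3 rose by 3.79 ± 0.70 and 1.74 ± 0.29. Arntl (BMAL1), the activator that Nr1d1 represses, had 7.85 and 9.07 CPM in BM 3W, against 21.2 and 25.3 CPM in BM 3D (log2 fold change -1.45 ± 0.33, adjusted p = 0.00958), and Cry1 and Per1 fell by 1.70 ± 0.31 and 1.47 ± 0.28. The Arntl call was lost without BM 3W library 1 (adjusted p = 0.0641). The hour of harvest was not stated in these sources, and its part was not tested.

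Metallothioneins, which bind zinc and copper, fell; of the 17 genes of metal binding and iron handling tested, 4 fell and none rose (median log2 fold change -0.95; 2 fell without either BM 3W library, 1 without BM 3D library 2 and 6 without BM 3D library 1). Mt1 had 78.6 and 37.1 CPM in BM 3W, against 262.8 and 1047 CPM in BM 3D (log2 fold change -3.50 ± 0.97, adjusted p = 0.0242), and Mt2 had 70.9 and 28.4 CPM in BM 3W, against 311.2 and 996.3 CPM in BM 3D (adjusted p = 0.0246). Both BM 3W libraries were below both BM 3D libraries, and both calls were lost without BM 3D library 2 (adjusted p = 0.137 for Mt1 and 0.108 for Mt2) or either BM 3W library (adjusted p from 0.066 to 0.151 for Mt1 and from 0.0614 to 0.153 for Mt2). Akr1c6, a hydroxysteroid dehydrogenase of adult liver, was an exception among the bile acid synthesis genes: it rose, with 127.6 and 23.99 CPM in BM 3W, against 0.608 and 2.66 CPM in BM 3D (log2 fold change 5.55 ± 1.14, adjusted p = 0.00612), though FH stood at 1796 and 1833 CPM.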
